A study of Mus musculus with 6 samples.

Results

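Cholesterol and fatty acid synthesis is described here through 32 genes in macrophages sorted from injured mouse muscle. The genes are a named list, matched by symbol, and it was chosen with earlier results of these data known. It holds 18 enzymes of sterol synthesis, 6 regulators around the sterol regulatory element-binding proteins (SREBPs), and 8 enzymes of fatty acid synthesis. All 32 were among the 53774 lines of the deposited table that carried a gene name. The macrophages were CD45posF4/80pos cells, carrying a leukocyte and a macrophage surface antigen, taken 3 days after barium chloride, a salt that kills myofibres, was injected into skeletal muscle. All mice had the genotype Cx3cr1-CreER, Manf fl/fl, in which a tamoxifen-inducible Cre under the Cx3cr1 promoter can delete Manf, the gene of an endoplasmic reticulum (ER) stress protein. The oil group (3 libraries) received the vehicle and the tamoxifen group (3 libraries) received tamoxifen. No tamoxifen-treated group without Cre or without the floxed alleles was analysed here, so tamoxifen itself and the deletion cannot be told apart. The labels do not say which animal or how many animals stand behind a library, so p-values measure the spread between libraries, which may be technical.

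Cholesterol is built from acetyl-CoA through mevalonate, isoprenoid units, squalene and lanosterol. Its genes and those of fatty acid synthesis are controlled in common by SREBPs, membrane proteins of the ER: when ER cholesterol is low, SCAP carries them to the Golgi, where proteases release the part that enters the nucleus, and when it is high, INSIG proteins hold SCAP in the ER. Oxysterols, made when cholesterol is plentiful, activate the liver X receptors (LXRs), which turn on cholesterol efflux genes. Macrophages that clear dead cells take in large amounts of cholesterol, and in them the LXR arm is known to be active.

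Levels are FPKM, read fragments per kilobase of gene scaled to the depth of the library. The length that matched the values was that of all annotated exons together. Levels of different genes therefore also depend on how much annotated exon a gene has. The depth recovered from the values ranged from 18120333 to 25544666 reads. Manf, the targeted gene, went against the labels in tamoxifen 2 and 3 but not in tamoxifen 1. Oil libraries held 29.5, 33.0 and 31.4 FPKM, and tamoxifen 1, 2 and 3, as labelled, held 18.1, 42.5 and 38.0 FPKM. The library labelled tamoxifen 1 was the lowest of the 6 and the other two were the highest. FPKM of the whole gene includes exons outside a deleted part. With all 6 libraries the log2 fold change of Manf was -0.017 (SE 0.29, limma-trend adjusted p = 0.956). Without tamoxifen 1 it was 0.35 (limma-trend adjusted p = 0.0214). That library held the lowest Manf level, so leaving it out raises the fold change by construction, and the p is no independent test. Directions below are therefore those of the libraries by their labels. The defining macrophage markers were present. Adgre1, the gene of the macrophage antigen used in the sort, was between 304 and 384 FPKM and Cd68 between 879 and 1289 FPKM over the 6 libraries. Other markers differed: Ptprc, the gene of CD45, Csf1r and Lyz2 were below oil in every tamoxifen library, and Fcgr1 was above it. Mertk was between 49.5 and 60.6 FPKM in oil, against 50.8, 27.2 and 28.5 FPKM in tamoxifen 1, 2 and 3. Most of the genes described here were lower in the library labelled tamoxifen 1 than in tamoxifen 2 and 3, and the counts of called genes are given with and without it.

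In oil macrophages the most abundant of the 32 transcripts were Acly (37.1 ± 2.20 FPKM, SD, n = 3), Insig1 (32.4 ± 3.48 FPKM), Fads1 (26.2 ± 1.98 FPKM) and Ebp (24.5 ± 1.56 FPKM). Acly makes cytosolic acetyl-CoA, the starting point of both pathways. Most sterol enzymes lay between 2.98 FPKM (Fdft1) and 9.66 FPKM (Cyp51). At the low end, Lss was at 0.603 ± 0.124 FPKM, Scd1 at 0.235 ± 0.103 FPKM and Fdps at 0.0601 ± 0.0397 FPKM. These 3 genes had a mean under 1 FPKM over the 6 libraries and were not tested, which left 29. Lss had between 94 and 257 recovered reads per library over 10787 annotated exon bases. Hsd17b7, which was tested, had between 71 and 296 reads over 5104 bases. Fdps, farnesyl diphosphate synthase, had between 2 and 21 recovered reads per library. Its coding transcripts matched transcripts of 5 other annotated genes, 4 of them pseudogenes, over at least 200 bases at 95% identity or more, so its level is uncertain.

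**Figure D1:**
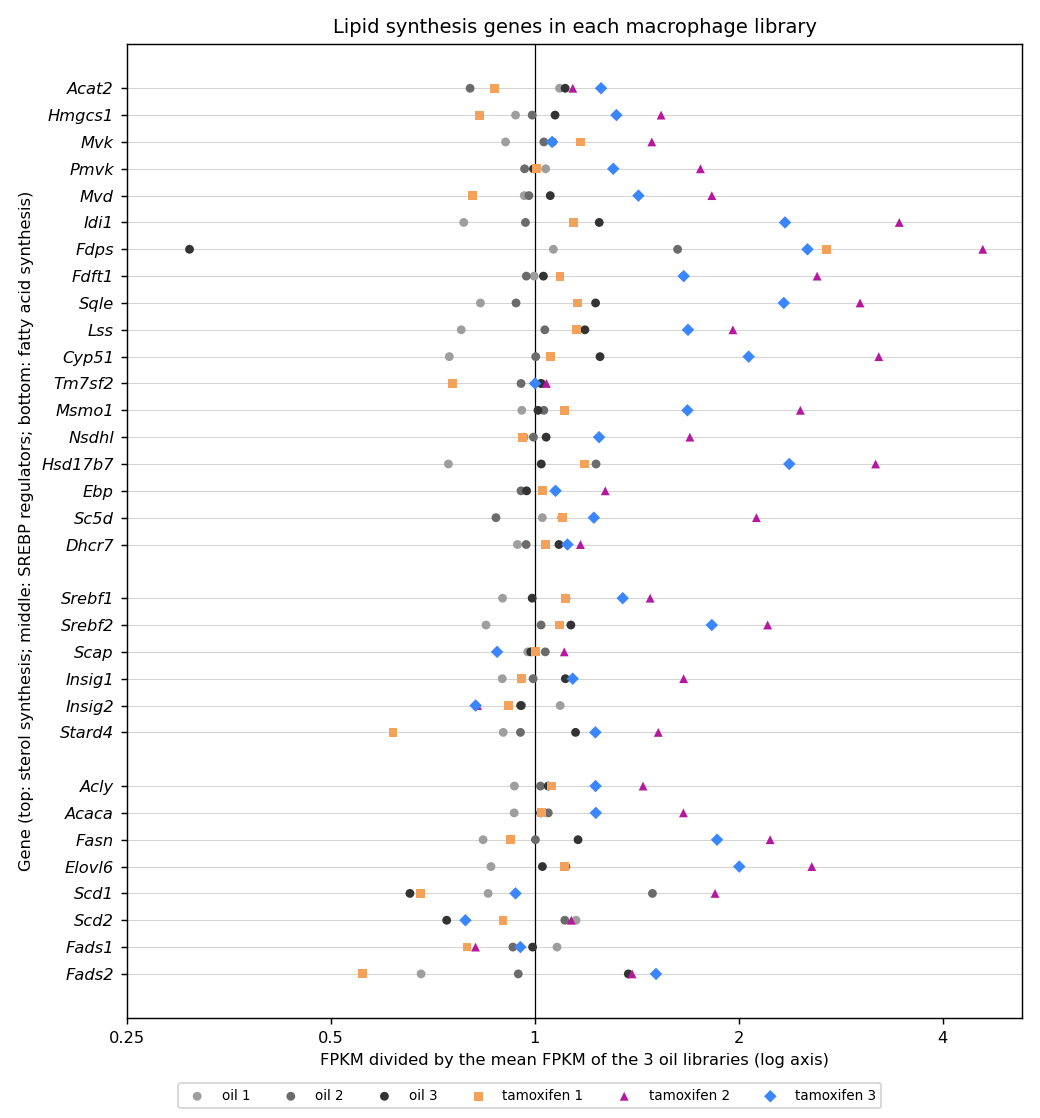
FPKM of each of the 32 genes in each library, divided by the mean of the 3 oil libraries (log axis); circles are oil libraries, and the square, triangle and diamond are tamoxifen 1, 2 and 3. For Idi1, Sqle, Cyp51, Hsd17b7 and Elovl6 the triangle and the diamond lie well to the right of the oil mean, from 2.07 times (Cyp51, tamoxifen 3) to 3.45 times (Idi1, tamoxifen 2) in the first 4, while the square lies among the oil libraries.

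Sterol synthesis was higher in the libraries labelled tamoxifen 2 and 3 and near the oil level in tamoxifen 1. Relative to the oil mean on the log2(FPKM + 1) scale, the median of the 16 sterol enzymes tested was 0.07, 0.77 and 0.36 in tamoxifen 1, 2 and 3, against -0.05 to 0.07 in the oil libraries. The median of all 10920 genes tested was 0.0019, 0.02 and 0.04 in the same tamoxifen libraries. In bulk RNA, more cells of a kind and more RNA per cell cannot be told apart.

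The isoprenoid step showed the largest ratio of group means among the 29 tested genes. Idi1, the isomerase that makes the building block of farnesyl diphosphate, measured 2.46, 3.03 and 3.90 FPKM in oil 1, 2 and 3 against 3.57, 10.8 and 7.33 FPKM in tamoxifen 1, 2 and 3. Tamoxifen 1 lay inside the oil range, and tamoxifen 2 and 3 lay well clear of oil. Its log2 fold change was 0.91, SE 0.33, with an adjusted p of 0.170 from limma-trend.

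Squalene formation and its oxidation followed the same order of libraries. Fdft1, squalene synthase, was at 2.97, 2.89 and 3.07 FPKM in oil, a narrow range, and at 3.24, 7.77 and 4.94 FPKM with tamoxifen. Every tamoxifen library of Fdft1 was above every oil library, with a log2 fold change of 0.60, SE 0.24, and an adjusted p of 0.189 from limma-trend. Sqle, squalene epoxidase and a rate-limiting step of the late pathway, measured 3.28, 3.70 and 4.84 FPKM in oil 1, 2 and 3 against 4.55, 11.9 and 9.18 FPKM in tamoxifen 1, 2 and 3. Only tamoxifen 1 overlapped with oil there, and the log2 fold change was 0.88, SE 0.30, with an adjusted p of 0.162 from limma-trend.

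Among the enzymes that turn lanosterol into cholesterol, 3 had large differences. Cyp51, lanosterol 14-alpha-demethylase, measured 7.23, 9.69 and 12.1 FPKM in oil 1, 2 and 3 against 10.2, 31.1 and 19.98 FPKM in tamoxifen 1, 2 and 3 (0.90 on the log2 scale, SE 0.37; adjusted p = 0.197 by limma-trend). The tamoxifen 2 library held 3.22 times the oil mean of Cyp51, from 2487 recovered reads. Msmo1, the C4-methyl sterol oxidase, measured 5.04, 5.43 and 5.32 FPKM in oil 1, 2 and 3 against 5.81, 13.0 and 8.84 FPKM in tamoxifen 1, 2 and 3 (0.64 on the log2 scale, SE 0.24; adjusted p = 0.172 by limma-trend). The groups did not overlap for Msmo1, though tamoxifen 1 was close to oil. Hsd17b7, the 3-ketosteroid reductase that works with Msmo1 and Nsdhl, measured 0.750, 1.24 and 1.03 FPKM in oil 1, 2 and 3 against 1.19, 3.20 and 2.39 FPKM in tamoxifen 1, 2 and 3 (0.66 on the log2 scale, SE 0.24; adjusted p = 0.170 by limma-trend). At an oil mean of 1.01 FPKM it is close to the filter at 1 FPKM.

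The other sterol enzymes differed less. Acat2, Hmgcs1, Mvk, Pmvk and Mvd, which act before the isoprenoid units or make them, had log2 fold changes of 0.09, 0.23, 0.25, 0.37 and 0.33, with limma-trend adjusted p between 0.234 and 0.698. Hmgcs1, which makes HMG-CoA, was at 8.74, 9.25 and 9.996 FPKM in oil, at 7.73 FPKM in tamoxifen 1, below all of them, and at 14.3 and 12.3 FPKM in tamoxifen 2 and 3, above all of them. Acat2 shares a near-identical stretch of 1477 bases with Acat3, and Idi1, Fdft1 and Elovl6 share stretches with pseudogenes and Tm7sf2 with its neighbour Vps51, so the levels of these genes are uncertain. The late enzymes Nsdhl, Sc5d, Ebp and Dhcr7 had log2 fold changes of 0.29, 0.42, 0.16 and 0.12. Tm7sf2, a sterol C14-reductase of the ER, was the 1 gene of the 16 tested with a fold change below 0 (-0.06, 95% confidence interval -0.31 to 0.19). Of the untested genes, Lss, lanosterol synthase, measured 0.470, 0.624 and 0.715 FPKM in oil 1, 2 and 3 against 0.694, 1.18 and 1.01 FPKM in tamoxifen 1, 2 and 3, and Fdps was at 0.0640, 0.0977 and 0.0186 FPKM and at 0.162, 0.275 and 0.152 FPKM.

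The start-site regions of 4 genes are shown. Of these, Idi1, Cyp51 and Srebf2 had large fold changes and an entry. Hmgcs1 was the only gene with an exact match to the letters searched for a sterol regulatory element. Sequences run from 250 bases before to 50 bases after the RefSeq start site, in the build GRCm38.p6, and 25 of the 32 genes had an entry, with 33 windows in all. Capitals mark matches on either strand to the sterol regulatory element TCACNCCAC, the CCAAT box CCAAT (the NF-Y motif) or the GC box GGGCGG (the Sp1 motif), and in these windows no base belonged to more than 1 motif.
Hmgcs1 (chr13:119690101-119690400, plus strand): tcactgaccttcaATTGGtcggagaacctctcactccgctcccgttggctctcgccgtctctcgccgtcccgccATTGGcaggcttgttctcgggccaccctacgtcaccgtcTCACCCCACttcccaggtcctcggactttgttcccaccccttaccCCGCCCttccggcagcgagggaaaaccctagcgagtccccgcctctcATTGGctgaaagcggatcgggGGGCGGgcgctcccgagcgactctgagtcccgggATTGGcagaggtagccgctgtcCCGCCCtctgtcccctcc
Idi1 (chr13:8885356-8885655, plus strand): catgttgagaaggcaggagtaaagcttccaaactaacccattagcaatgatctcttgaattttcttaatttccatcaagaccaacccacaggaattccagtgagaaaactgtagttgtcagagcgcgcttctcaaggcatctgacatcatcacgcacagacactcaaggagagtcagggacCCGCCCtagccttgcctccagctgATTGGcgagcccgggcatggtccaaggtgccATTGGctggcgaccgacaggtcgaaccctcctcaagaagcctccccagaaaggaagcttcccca
Cyp51 (chr5:4104648-4104947, minus strand): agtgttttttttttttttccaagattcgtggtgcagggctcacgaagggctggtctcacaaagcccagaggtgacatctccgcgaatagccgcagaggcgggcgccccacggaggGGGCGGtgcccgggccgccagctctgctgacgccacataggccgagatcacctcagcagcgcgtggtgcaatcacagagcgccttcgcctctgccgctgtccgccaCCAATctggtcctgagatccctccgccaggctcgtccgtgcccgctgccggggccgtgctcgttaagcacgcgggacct
Srebf2 (chr15:82147019-82147318, plus strand): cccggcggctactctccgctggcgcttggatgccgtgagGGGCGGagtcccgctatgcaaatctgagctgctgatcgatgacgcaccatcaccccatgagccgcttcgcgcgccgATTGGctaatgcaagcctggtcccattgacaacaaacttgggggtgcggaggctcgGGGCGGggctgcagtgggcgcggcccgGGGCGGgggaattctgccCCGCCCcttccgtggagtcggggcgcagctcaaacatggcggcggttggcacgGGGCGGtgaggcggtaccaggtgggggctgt

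In Hmgcs1 the sterol regulatory element began at position -137 relative to the start site. Exact letters of that element were held by 1 of the 33 windows, or 3.03%. The shares were 1.24% of all 32851 windows of the same length and 1.13% of the 9939 windows of genes that entered the test. A CCAAT box was found in 21 windows (63.6%), against 37.4% of all windows and 37.4% of those of tested genes. A GC box was found in 25 windows (75.8%), against 35.7% and 63.2%. These matches describe the letters of the windows, not bound sites. A gene can carry such a site outside its window, or inside it in letters that differ from those searched.

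Both SREBP genes were higher in tamoxifen 2 and 3. Srebf2 encodes SREBP2, the main driver of sterol genes, and measured 13.2, 15.9 and 17.6 FPKM in oil 1, 2 and 3 against 16.9, 34.4 and 28.4 FPKM in tamoxifen 1, 2 and 3. Tamoxifen 1 lay within the oil range, and the log2 fold change was 0.69, SE 0.25, with an adjusted p of 0.168 from limma-trend. Srebf1, whose products act mainly on fatty acid genes, measured 9.90, 12.3 and 10.95 FPKM in oil 1, 2 and 3 against 12.3, 16.3 and 14.9 FPKM in tamoxifen 1, 2 and 3. Its log2 fold change was 0.36, SE 0.12, with an adjusted p of 0.162 from limma-trend, and the oil 2 and tamoxifen 1 libraries were almost level. The ratio of Srebf2 to Srebf1 FPKM was 1.33, 1.30 and 1.61 in oil, 1.38 in tamoxifen 1, and 2.10 and 1.91 in tamoxifen 2 and 3.

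Of the proteins that hold SREBPs in the ER, Insig1 and Insig2 had fold changes of opposite sign, and neither passed the adjusted test. Insig1, itself a known SREBP target, measured 29.0, 32.3 and 36.0 FPKM in oil 1, 2 and 3 against 31.0, 53.8 and 36.9 FPKM in tamoxifen 1, 2 and 3, so that tamoxifen 2 alone stood clear of the others (0.28 on the log2 scale, SE 0.20; adjusted p = 0.384 by limma-trend). Insig2 went the other way, 7.39, 6.48 and 6.46 FPKM in oil 1, 2 and 3 against 6.20, 5.58 and 5.54 FPKM in tamoxifen 1, 2 and 3, every tamoxifen library lying below every oil library (-0.20 on the log2 scale, SE 0.08; adjusted p = 0.199 by limma-trend). The ratio of Insig1 to Insig2 FPKM was 3.93, 4.98 and 5.57 in oil and 5.01, 9.65 and 6.66 with tamoxifen. Scap, the escort protein, ran from 4.14 to 5.20 FPKM over all 6 libraries, and its log2 fold change was -0.0089 (95% confidence interval -0.22 to 0.20). Stard4, a carrier that moves cholesterol to the ER, was at 3.26, 3.46 and 4.17 FPKM in oil, at 2.24 FPKM in tamoxifen 1, the lowest library, and at 5.52 and 4.46 FPKM in tamoxifen 2 and 3, the highest.

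**Figure D2:**
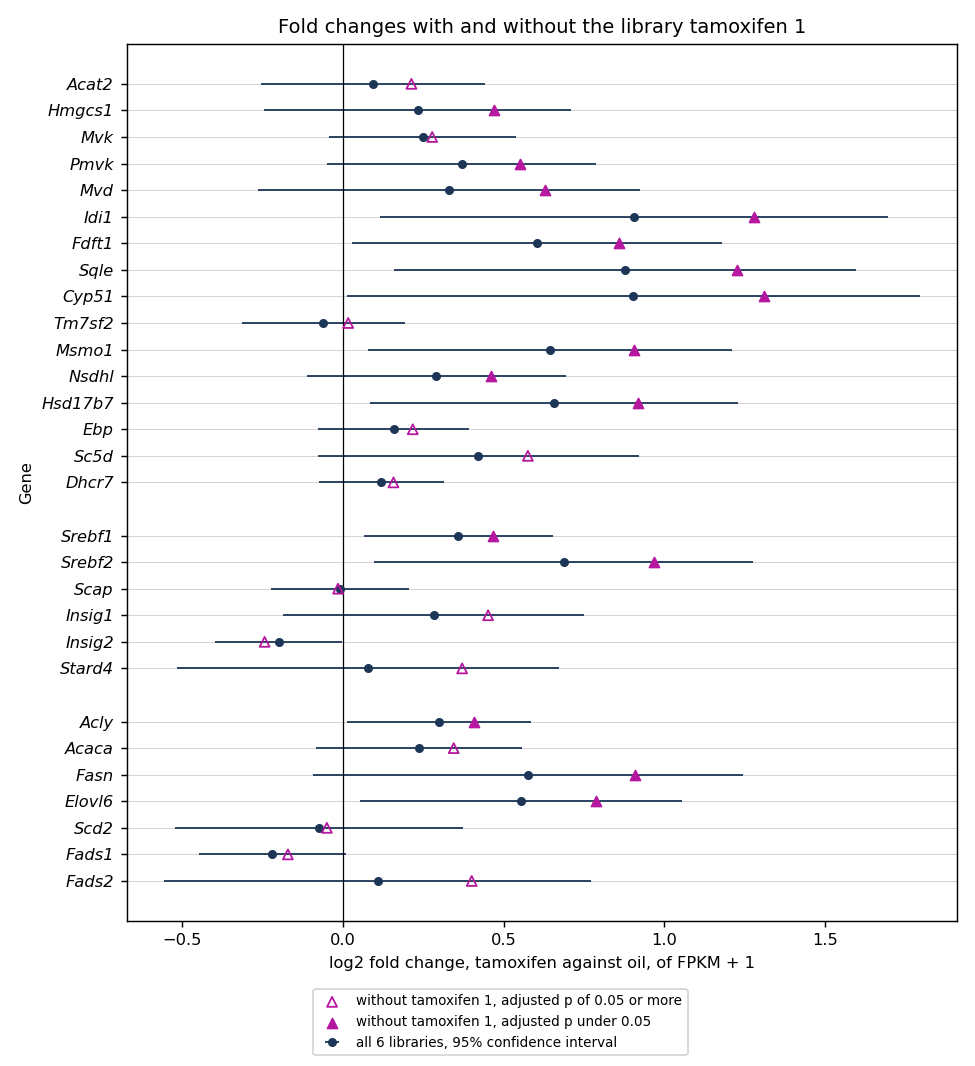
Log2 fold change of the 29 tested genes, tamoxifen against oil, with all 6 libraries (circle, with its 95% confidence interval, n = 3 per group) and without tamoxifen 1 (triangle, filled where the adjusted p was under 0.05). Without tamoxifen 1, 15 triangles are filled, all of them above 0.

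In fatty acid synthesis none of the 7 tested genes passed the adjusted test by limma-trend, and 2 (Acly and Elovl6) had an unadjusted p under 0.05. Fasn, fatty acid synthase, measured 4.32, 5.16 and 5.96 FPKM in oil 1, 2 and 3 against 4.74, 11.4 and 9.56 FPKM in tamoxifen 1, 2 and 3 (0.58 on the log2 scale, SE 0.28; adjusted p = 0.241 by limma-trend). Elovl6, which lengthens palmitate to stearate, measured 1.14, 1.47 and 1.36 FPKM in oil 1, 2 and 3 against 1.46, 3.39 and 2.65 FPKM in tamoxifen 1, 2 and 3 (0.55 on the log2 scale, SE 0.21; adjusted p = 0.177 by limma-trend). In both genes tamoxifen 2 and 3 stood above all oil libraries and tamoxifen 1 lay among them. Acly measured 34.6, 37.8 and 38.9 FPKM in oil 1, 2 and 3 against 39.3, 53.6 and 45.6 FPKM in tamoxifen 1, 2 and 3, without overlap, at a log2 fold change of 0.30, SE 0.12, with an adjusted p of 0.190 from limma-trend. Acaca, acetyl-CoA carboxylase, measured 1.54, 1.73 and 1.69 FPKM in oil 1, 2 and 3 against 1.69, 2.74 and 2.03 FPKM in tamoxifen 1, 2 and 3. A pseudogene shares a long stretch with Acaca, which makes its level uncertain.

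The desaturases had log2 fold changes between -0.22 and 0.11, and no test compared them with Fasn or Elovl6. Scd2, the stearoyl-CoA desaturase with the higher level here, measured 14.2, 13.7 and 9.14 FPKM in oil 1, 2 and 3 against 11.1, 14.0 and 9.74 FPKM in tamoxifen 1, 2 and 3. Its groups overlapped fully, with a log2 fold change of -0.07 (95% confidence interval -0.52 to 0.37). Scd1, untested, measured 0.201, 0.351 and 0.154 FPKM in oil 1, 2 and 3 against 0.160, 0.434 and 0.220 FPKM in tamoxifen 1, 2 and 3, so that Scd2 was between 32.2 and 70.7 times higher per length. A transcript of Scd2 and one of Scd1 share a near-identical stretch of 623 bases. Fads1, the delta-5 desaturase, measured 28.3, 24.4 and 26.1 FPKM in oil 1, 2 and 3 against 20.8, 21.5 and 25.0 FPKM in tamoxifen 1, 2 and 3 (log2 fold change -0.22, 95% confidence interval -0.45 to 0.0094). Fads2, the delta-6 desaturase, measured 1.32, 1.84 and 2.67 FPKM in oil 1, 2 and 3 against 1.08, 2.71 and 2.94 FPKM in tamoxifen 1, 2 and 3. Tamoxifen 2 and 3 were just above the highest oil library for Fads2 and tamoxifen 1 was below the lowest, and the log2 fold change was 0.11 with all 6 libraries and 0.40 without tamoxifen 1 (limma-trend adjusted p = 0.817 and 0.158).

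Across the comparison of all 3 tamoxifen with all 3 oil libraries, limma-trend with Benjamini-Hochberg adjustment called 0 of the 29 genes higher and 0 lower at an adjusted p under 0.05, as it called 0% of the 10920 genes tested in either direction. The limma-voom test on recovered reads, added after the data were seen, also called 0 of the 25 genes it covered. At an unadjusted p under 0.05, 10 of the 29 were higher and 1 (Insig2) was lower, where the shares over all genes tested were 13.2% and 11.7%. The 10 were Srebf1, Sqle, Srebf2, Hsd17b7, Idi1, Msmo1, Elovl6, Fdft1, Acly and Cyp51. Leaving out any 1 library other than tamoxifen 1 gave between 0 and 3 higher genes at that p. In 4 genes (Fdft1, Msmo1, Sc5d and Acly) every tamoxifen library was above every oil library, and in 1 (Insig2) every tamoxifen library was below, against 16.2% and 13.8% of all genes tested, so the counts of genes without overlap were not above the background. Fold changes were above 0 for 24 of the 29, against 53.7% of all genes tested. The median log2 fold change of the 29 was 0.29, that of all genes 0.02, and that of the 29 was 0.11 without tamoxifen 2. Without tamoxifen 2 the log2 fold change was 0.34 for Fdft1, 0.55 for Cyp51, 0.59 for Idi1, 0.39 for Msmo1, 0.35 for Fasn, 0.19 for Acly and 0.065 for Insig1, each over 1.5 times smaller than with all 6 libraries. With no filter on low values, all 32 genes entered, the median was 0.29, 9 were higher and 1 lower at an unadjusted p under 0.05, and limma-trend called 0.

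Without the library labelled tamoxifen 1, with 2 tamoxifen and 3 oil libraries, limma-trend called 15 of the 29 genes higher and 0 lower, where the shares over all genes tested were 17.4% and 14.5%. Of these, 10 of 16 belonged to sterol synthesis, 2 of 6 to the regulators and 3 of 7 to fatty acid synthesis. On the log2(FPKM + 1) scale Cyp51, Idi1 and Sqle rose by 1.31 (SE 0.24), 1.28 (SE 0.20) and 1.23 (SE 0.16), with limma-trend adjusted p of 0.0116, 0.00700 and 0.00493. Srebf2 rose by 0.97 (limma-trend adjusted p = 0.00571), Hsd17b7 by 0.92 (3.18 and 2.37 times the oil mean in FPKM, a change that the scale understates at its low level), Fasn by 0.91, Msmo1 by 0.91, Fdft1 by 0.86 and Elovl6 by 0.79. Mvd, Pmvk, Hmgcs1, Srebf1, Nsdhl and Acly rose by between 0.41 and 0.63. The 14 that did not pass included Insig1 (0.45, limma-trend adjusted p = 0.0875), Insig2 (-0.24, limma-trend adjusted p = 0.0640), Scap and the desaturases Scd2, Fads1 and Fads2. Leaving out any other 1 library gave 0 called genes among the 29.

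**Figure D3:**
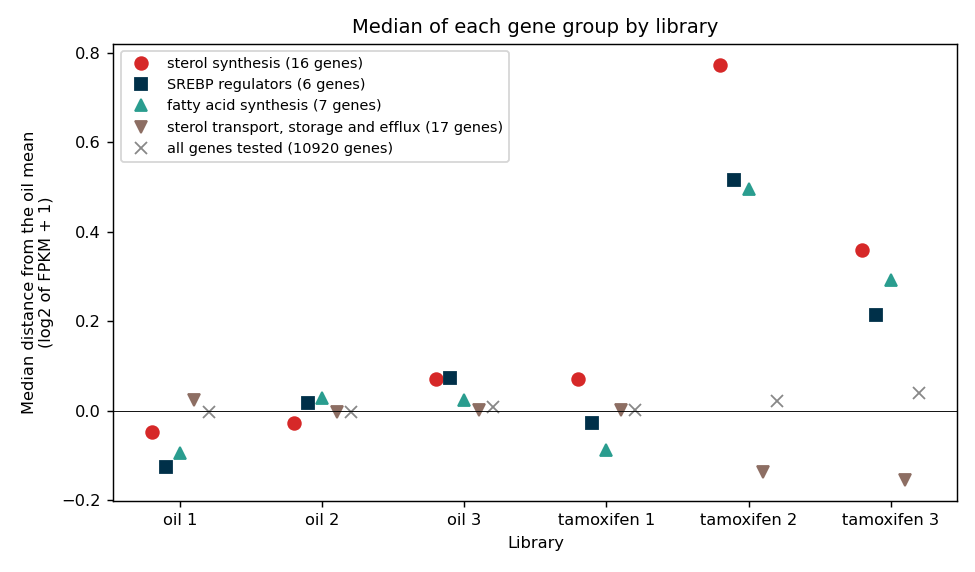
Median distance of each gene group from its oil mean, on the scale of log2(FPKM + 1), in each of the 6 libraries. The 3 lipid synthesis groups are highest in tamoxifen 2 and next highest in tamoxifen 3, the median of sterol transport, storage and efflux genes is lowest in those libraries, and tamoxifen 1 lies near the oil libraries.

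The order of the libraries was shared by most of the genes. Tamoxifen 2 was the highest of the 6 libraries for 24 of the 29 genes, against 27.6% of all genes tested. Tamoxifen 2 was above tamoxifen 3, and tamoxifen 3 above tamoxifen 1, for 22 of the 29, against 24.9%. Tamoxifen 2 and 3 both lay above every oil library for 23 of the 29, against 33.7%. Tamoxifen 1 lay within the oil range for 16 of the 29, against 43.1% of all genes tested. It lay above that range for 5 (Mvk, Fdft1, Msmo1, Sc5d and Acly), against 28.4%. It lay below the range for 8 (Hmgcs1, Mvd, Tm7sf2, Nsdhl, Insig2, Stard4, Fads1 and Fads2), against 28.5%, so that count is near the background. The oil libraries also differed: oil 1 was the lowest oil library for 20 of the 29, against 36.9% of all genes tested, and 14 of the 29, among them Idi1, Sqle, Cyp51, Srebf2 and Fasn, were lowest in oil 1 and highest in oil 3 with oil 2 between, against 21.6%. Genes of 1 pathway share their library, so these counts are descriptions.

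Summed markers of neutrophils and fibroblasts were highest in tamoxifen 2 and next highest in tamoxifen 3. The summed level of 12 neutrophil markers was between 50.5 and 54.1 FPKM among oil libraries, against 55.6, 368 and 113 FPKM in tamoxifen 1, 2 and 3, and 5 of the 12 stayed under 1 FPKM in every library. In tamoxifen 2 the sum was carried by S100a8 (154 FPKM), S100a9 (119.9 FPKM) and Lcn2 (33.6 FPKM). Mmp8 was also highest there, at 12.2, 30.3 and 13.2 FPKM in tamoxifen 1, 2 and 3 against 8.81 to 11.2 FPKM in oil. Other markers of the list differed from these: Csf3r was between 27.3 and 28.7 FPKM across oil libraries, against 30.3, 15.2 and 14.6 FPKM in tamoxifen 1, 2 and 3, and Mmp9 and Retnlg had overlapping groups. Summed levels of 7 fibroblast markers were between 24.5 and 26.8 FPKM among oil libraries, against 16.6, 41.4 and 31.2 FPKM in tamoxifen 1, 2 and 3, with 1 of the 7 under 1 FPKM throughout. The part of either cell type in the lipid synthesis values was not tested. All 9 adipocyte markers, Adipoq, Plin1 and Cfd among them, were under 1 FPKM in every library, and Lep was at 0. The 9 summed to between 0.394 and 0.455 FPKM in oil and between 0.182 and 0.334 FPKM with tamoxifen. The 9 muscle markers summed to between 7.36 and 13.4 FPKM in oil and between 2.88 and 5.11 FPKM with tamoxifen, with 4 of the 9 under 1 FPKM throughout. The 5 endothelial and 5 erythroid markers had overlapping sums of at most 6.86 and 4.25 FPKM. The 7 macrophage markers summed to between 10723 and 12413 FPKM in oil and between 8515 and 9639 FPKM with tamoxifen. Lyz2 carried most of that sum, at 8548 to 10193 FPKM in oil and 6774 to 7399 FPKM with tamoxifen. Ptprc, Csf1r and Lyz2 were below oil in every tamoxifen library, Fcgr1 was above it, and Adgre1, Cd68 and Mertk had overlapping groups.

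Genes next to these pathways were examined as 4 further lists, and with all 6 libraries limma-trend called 0 genes in each. The shares of all genes to read their counts against are those given above, 13.2% higher and 11.7% lower at an unadjusted p under 0.05, and 17.4% higher and 14.5% lower called without tamoxifen 1. In the branches that use isoprenoids for prenyl groups, dolichol and ubiquinone, of 13 genes tested 3 were higher and 0 lower at an unadjusted p under 0.05, the median log2 fold change was 0.04, and without tamoxifen 1 limma-trend called 3 higher and 0 lower. Those 3 were Coq2 (ubiquinone synthesis), Rabggtb (prenylation of Rab proteins) and Nus1 (dolichol synthesis), with log2 fold changes of 0.33 (SE 0.11), 0.24 (SE 0.10) and 0.23 (SE 0.097) over all 6 libraries and limma-trend adjusted p of 0.157, 0.199 and 0.200. Coq2 averaged 8.08 ± 1.12 and 10.4 ± 0.767 FPKM, Rabggtb 15.2 ± 1.17 and 18.2 ± 2.04 FPKM, and Nus1 26.1 ± 0.873 and 30.9 ± 3.66 FPKM, in oil and tamoxifen (SD, n = 3). In the list of SREBP processing and degradation, 1 of 11 genes tested (Erlin1) was higher and 1 (Mylip) lower at an unadjusted p under 0.05. The median was -0.0045. The product of Mylip degrades lipoprotein receptors, so the lower count does not describe SREBP processing. Without tamoxifen 1, limma-trend called Erlin1, an ER protein of the degradation machinery, and Nploc4, a cofactor that extracts proteins from the ER membrane, higher (0.41 and 0.37 on the log2 scale) and Mylip lower, and 2 of 11 is near the share of all genes. With all 6 libraries Erlin1 averaged 12.9 ± 0.266 and 16.1 ± 2.36 FPKM and Nploc4 14.7 ± 1.26 and 17.9 ± 2.36 FPKM in oil and tamoxifen (SD, n = 3), with log2 fold changes of 0.29 (SE 0.11) and 0.26 (SE 0.11) and limma-trend adjusted p of 0.179 and 0.208. Mbtps1, the site-1 protease that cuts SREBPs, ran from 6.97 to 7.97 FPKM over the 6 libraries and was picked once its values were known.

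The list of fatty acid activation, elongation and esterification held genes that were higher and genes that were lower. Of 22 genes tested 5 were higher and 2 lower at an unadjusted p under 0.05, against 13.2% and 11.7% of all genes tested. The median log2 fold change was 0.08. Without tamoxifen 1 limma-trend called 8 higher and 4 lower, against 17.4% and 14.5%. Among the esterification genes, picked once their values were known, Dgat2 was called higher (0.48) and Dgat1, Lpin1 and Lpin2 lower (-0.38, -0.83 and -0.42) without tamoxifen 1, and Agpat2 was above oil in every tamoxifen library. Hacd2 and Hsd17b12, enzymes of the microsomal elongation cycle, were at 6.78 ± 0.353 and 58.6 ± 4.22 FPKM among oil libraries, against 9.505 ± 1.28 and 83.3 ± 12.4 FPKM in the tamoxifen group (SD, n = 3), with log2 fold changes of 0.43 and 0.49, for which limma-trend gave adjusted p of 0.147 and 0.148. Agpat3, an acyltransferase of phospholipid synthesis, measured 11.7, 11.1 and 11.8 FPKM in oil 1, 2 and 3 against 9.004, 5.01 and 6.19 FPKM in tamoxifen 1, 2 and 3, without overlap (-0.73 on the log2 scale, SE 0.18; adjusted p = 0.147 by limma-trend). In these 3 genes tamoxifen 1 also lay outside the oil range, on the same side as tamoxifen 2 and 3. Without it, their log2 fold changes were 0.52 (Hacd2), 0.61 (Hsd17b12) and -0.93 (Agpat3).

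The exporters Abca1 and Abcg1 were lower in the libraries in which sterol enzymes were higher. Other genes of sterol transport, storage and efflux went in both directions. Of 17 genes tested 2 were higher and 4 lower at an unadjusted p under 0.05, against 13.2% and 11.7% of all genes tested. The median log2 fold change was -0.13. Without tamoxifen 1 limma-trend called 2 higher and 7 lower, against 17.4% and 14.5%. The 7 lower were Abca1, Abcg1, Nr1h3, Gramd1a, Lipa (-0.99), Gramd1b (-0.52) and Npc2 (-0.33). The 2 higher were Osbp (0.42), a lipid carrier between membranes, and Tmem97 (0.51). Lrp1 and Osbpl8 were above oil in every tamoxifen library and 5 genes were below, against 16.2% and 13.8% of all genes tested. Osbp, Tmem97, Lrp1 and Osbpl8 were picked once their values were known. Abca1, the exporter of cholesterol to apolipoprotein A-I and a classic LXR target, measured 59.8, 49.1 and 46.9 FPKM in oil 1, 2 and 3 against 44.4, 15.01 and 17.2 FPKM in tamoxifen 1, 2 and 3 (-1.16 on the log2 scale, SE 0.38; adjusted p = 0.157 by limma-trend). Abcg1, the exporter to high-density lipoprotein and also an LXR target, measured 64.1, 58.0 and 50.9 FPKM in oil 1, 2 and 3 against 50.3, 13.0 and 18.4 FPKM in tamoxifen 1, 2 and 3 (-1.28 on the log2 scale, SE 0.44; adjusted p = 0.162 by limma-trend). In both, tamoxifen 1 lay just under the lowest oil library and tamoxifen 2 and 3 far under it. Gramd1a, which carries accessible cholesterol from the plasma membrane to the ER, averaged 20.4 ± 0.804 FPKM over oil and 15.6 ± 1.44 FPKM over tamoxifen libraries (SD, n = 3, log2 fold change -0.37, limma-trend adjusted p = 0.147), and its log2 fold change was -0.43 without tamoxifen 1.

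The LXR genes and a further LXR target are given beside the exporters. No list of LXR targets was examined, so these few genes do not describe LXR targets in general. Nr1h3, which encodes LXR-alpha and was picked once its values were known, measured 33.8, 31.0 and 30.4 FPKM in oil 1, 2 and 3 against 32.3, 13.1 and 16.9 FPKM in tamoxifen 1, 2 and 3. Nr1h2, which encodes LXR-beta and was likewise picked, measured 22.7, 22.3 and 21.9 FPKM in oil 1, 2 and 3 against 20.5, 20.2 and 19.9 FPKM in tamoxifen 1, 2 and 3, a log2 fold change of -0.14 with all 6 libraries and -0.15 without tamoxifen 1 (limma-trend adjusted p = 0.218 and 0.101). Mylip, the LXR target whose product degrades lipoprotein receptors, measured 53.1, 48.2 and 40.3 FPKM in oil 1, 2 and 3 against 43.5, 21.9 and 25.5 FPKM in tamoxifen 1, 2 and 3 (-0.67 on the log2 scale, SE 0.25; adjusted p = 0.170 by limma-trend). Without tamoxifen 1, Abca1 fell by 1.63, Abcg1 by 1.82, Nr1h3 by 1.04 and Mylip by 0.96 on the log2 scale (limma-trend adjusted p between 0.00245 and 0.00505), in the same comparison in which Cyp51, Idi1 and Sqle rose. Within oil, Abca1, Abcg1 and Mylip were highest in oil 1 and lowest in oil 3, the reverse of Cyp51, Idi1, Sqle and Srebf2. The part of neutrophil and fibroblast RNA in these values was not tested.

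**Figure D4:**
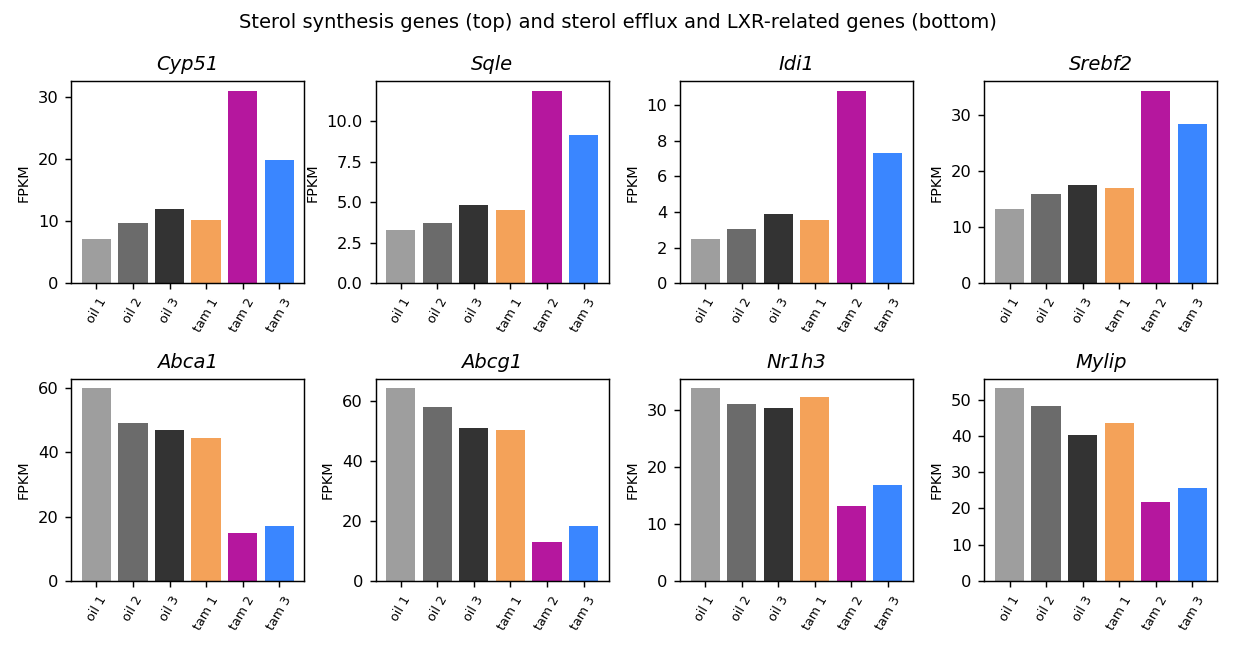
FPKM in each library (bars from 0, 1 bar per library, with oil in grey and tam 1, 2 and 3 standing for tamoxifen 1, 2 and 3) of Cyp51, Sqle, Idi1 and Srebf2 in the top row and Abca1, Abcg1, Nr1h3 and Mylip in the bottom row. The top row is highest and the bottom row lowest in tamoxifen 2 and 3, and tamoxifen 1 lies near oil in both.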

How the data were processed

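FPKM per gene and library were deposited by the authors as 1 table, whose name and values give the unit. Per the submitters' processing notes, the genome build was GRCm38.p6. The aligner, the counter, the annotation and the treatment of multi-mapped reads are not stated in the sources used here. Of 54183 lines, 382 had no gene name and 27 a date as name, and were left out; 124 names on more than 1 line were kept out of the gene lists. Low FPKM times GENCODE M21 exon length gave whole reads within 0.02 for 95.0% to 95.2% of values up to 1000 reads; 27 of the 32 genes were whole in all 6 libraries. The test was limma-trend (limma 3.58.1, R 4.3.3) on log2(FPKM + 1), two-sided, for the 10920 genes whose mean over the 6 libraries reached 1 FPKM, without covariates; fold changes on that scale understate the change of low genes. Samples were grouped by their titles. The members and lists were chosen with earlier results of these data known. Each of the 32 genes is accounted for, and not every gene of the further lists is named. Full values are given for the 10 of smallest p and for Srebf1, Srebf2, Insig1, Insig2, Fasn, Scd1 and Scd2. In each further list values are given for the 3 of smallest p. Alternatives were 16 planned ones (pseudocounts, filters, scalings, limma settings, a replicate block, each library left out) and 2 added after seeing the data (limma-voom on recovered reads, library quality weights). The fit was tested on simulated data. Promoter sequences are from RefSeq.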

Additional observations from a re-analysis of the deposited data

How the results depend on the processing

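Over 29 genes and 18 alternatives, limma-trend, limma without trend or limma-voom gave 506 fold changes beside the reported ones. Of these 462 kept direction and side of the threshold, 31 passed the adjusted p of 0.05 where the reported fit did not, and 13 changed sign, all in genes close to 0. With 1 library left out, log2 fold changes ran from -0.11 to 0.017 for Tm7sf2 (0.0046 with library quality weights), -0.058 to 0.40 for Fads2, -0.074 to 0.062 for Scap, -0.26 to 0.035 for Scd2, -0.022 to 0.21 for Acat2 and -0.13 to 0.37 for Stard4. The cause was not tested.

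Counts of genes called among all genes were 0 higher and 1 lower without a filter, 1 and 4 at a filter of 5 FPKM, 11 and 22 with the replicate block, 2704 and 2037 with library quality weights, and between 0 and 1901 higher and 0 and 1583 lower with 1 library left out. Among the 29, library quality weights called 15 higher and 1 lower, against 2704 and 2037 of the 10920 genes tested. At an unadjusted p under 0.05 these weights gave 18 higher among the 29, against 3286 of all genes tested. The alternatives that left out 1 library called between 0 and 15 higher. With 1 library left out the count at an unadjusted p under 0.05 was between 0 and 19 higher and between 0 and 1 lower. The genes without overlap were between 4 and 23 above and 1 and 2 below, and the median log2 fold change was between 0.11 and 0.46. The largest counts, 15 called, 19 at that p and 23 above, came without tamoxifen 1. The same counts over the 10920 genes tested were 1901, 2730 and 3675 there. The lower count at an unadjusted p was 2 after quantile normalization, with equal sums and with median-of-ratios scaling, and 0 without the trend or at 5 FPKM. The genes above without overlap were 2 at 5 FPKM and 2 with equal sums, and those below were 2 after quantile normalization and 2 with median-of-ratios scaling. The labels do not say whether the replicate numbers pair the libraries. Correlations of same-numbered deviations were 0.261, 0.0884 and 0.00397, and those of other pairs ran from -0.256 to 0.174, which does not settle it. The replicate block called 0 of the 29. Low levels limit Fdps and Scd1 most. Lss fell under the filter with between 94 and 257 recovered reads per library.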
